A study of Homo sapiens with 12 samples.

Results

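MicroRNA (miRNA) precursor loci were followed in a human melanoma line treated with kinase inhibitors, a histone deacetylase inhibitor or both. The array read 1018 genes whose symbol names a miRNA, with the long host genes ending in HG left out, and 227 of them (22.3%) had a mean log2 intensity of at least 4 over all 12 arrays. Those 227 loci, each read by its brightest probe set, are the subject here. The rule used the level and no contrast: 192 of the 227 reached 4 in each of the 4 group means and 35 in only some of them. No background measurement accompanies the values, so a level of 4 is a brightness limit, and whether a locus lies above the background of its array was not tested.

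The cells were A2058, an established human melanoma line grown in DMEM with serum and exposed to the agents for 24 h. There were 4 groups with 3 arrays each, and an array is named below by its group and replicate number (DMSO 2). The group called DTE received dabrafenib at 100 nM, trametinib at 10 nM and entinostat at 1 µM together. The group called DT received dabrafenib with trametinib at those doses, the group called E received entinostat alone, and the DMSO group received the vehicle. Dabrafenib inhibits RAF kinases, trametinib inhibits MEK, the kinase directly above ERK, and entinostat inhibits class I histone deacetylases. All arrays come from 1 cell line. The sample titles speak of biological replicates and the series design of technical triplicates, and p-values therefore reflect no more than array-to-array spread, possibly technical in origin.

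A miRNA gene is transcribed as a long primary RNA, alone or inside the intron of a host gene. DROSHA and DGCR8 cut out the hairpin precursor in the nucleus, XPO5 exports it, DICER1 with TARBP2 trims it, and 1 strand is loaded into an Argonaute protein. The seed, bases 2 to 8 of the mature strand, pairs with target messages and lowers their output. A probe set over a hairpin locus may read the primary transcript, the precursor or RNA of the host gene, and it does not tell these apart. Mature miRNA levels were not analysed here. In melanoma, miR-221 and miR-222 are known as repressors of KIT and CDKN1B, miR-21 as a repressor of PDCD4, and the let-7 family as repressors of RAS and MYC family messages.

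RefSeq entries (GRCh38.p14) were found for 208 of the 227 loci, 190 with a hairpin and 18 with a mature strand only. Their 295 mature strands carried 274 different seeds, and 16 seeds were shared by 35 of the loci. The strands below belong to the loci on which the results turn and to the loci that share a seed with them. They are printed 5′ to 3′ with the seed in capitals.
miR-221-3p: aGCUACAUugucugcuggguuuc
miR-222-3p: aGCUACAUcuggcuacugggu
miR-21-5p: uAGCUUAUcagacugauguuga
miR-590-5p: gAGCUUAUucauaaaagugcag
miR-181b-5p: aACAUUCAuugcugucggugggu
miR-181c-5p: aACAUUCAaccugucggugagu
miR-181d-5p: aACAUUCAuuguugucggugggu
miR-25-3p: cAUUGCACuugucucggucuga
miR-92b-3p: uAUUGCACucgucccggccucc
miR-106b-5p: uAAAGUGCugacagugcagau
miR-622: aCAGUCUGcugagguuggagc
miR-3689a-5p, miR-3689b-5p and miR-3689e: uGUGAUAUcaugguuccuggga
miR-3689f: uGUGAUAUcgugcuuccuggga
miR-3689d: gGGAGGUGugaucucacacucg
miR-4534: gGAUGGAGgaggggucu
miR-4324: cCCUGAGAcccuaaccuuaa
miR-146a-5p: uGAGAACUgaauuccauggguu
miR-1226-3p: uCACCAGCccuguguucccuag
miR-3130-5p: uACCCAGUcuccggugcagcc
let-7d-5p: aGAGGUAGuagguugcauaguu
let-7e-5p: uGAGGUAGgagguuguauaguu
let-7i-5p: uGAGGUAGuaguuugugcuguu
miR-98-5p: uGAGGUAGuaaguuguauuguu

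The level of the 227 loci was set in part by the limit, since all 1018 miRNA loci had a median of 2.40 log2. Means of the 227 over the 12 arrays ran from 4.0 to 10.41 on the log2 scale. Their median was 4.93, beside 4.69 for all genes. MIR4737, MIR3689A and MIR3689B were among the brightest. The median residual SD of a locus was 0.273 log2, against 0.162 among the 8456 other genes with a mean of at least 4. Of the 13562 genes that are not miRNA loci, 62.4% reached the same level. Values just inside the limit were 4.0 for MIR4314, 4.02 for MIR181C and 4.03 for MIR500A, and just outside it 3.99 for MIR371A, 3.98 for MIR573 and 3.97 for MIR4420.

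The genes known to follow the drugs, and the line's own markers, set the context. All 11 measured genes of a list of ERK output genes fell in DTE and in DT, with DUSP6, a phosphatase induced by ERK, 4.84 log2 lower in DTE and 4.47 lower in DT than in DMSO. Of 10 measured melanocyte markers, SOX10, PMEL and TYR had group means between 8.23 and 9.88 in all 4 groups. PMEL still moved with the drugs, with a mean of 9.88 in DT and 8.79 in DMSO, as did other markers. Against DMSO, 4 of the 10 rose and 1 fell in DTE, 5 rose and 0 fell in DT, and 1 rose and 3 fell in E, and 7 were lower in DTE than in DT. TYRP1, a pigment enzyme, averaged 7.58 log2 in DTE, 9.03 in DT, 6.14 in E and 6.36 in DMSO. The summed melanocyte level was 10.88 to 10.98 in DTE arrays, 11.5 to 11.72 in DT, 10.64 to 10.78 in E and 10.77 to 10.82 in DMSO. Of 3 measured fibroblast markers 2 rose in DTE, 0 in DT and 3 in E against DMSO, and their summed level was 8.78 to 9.23 in DTE arrays, 7.53 to 7.94 in DT, 8.23 to 8.49 in E and 7.38 to 7.59 in DMSO. Of 7 epithelial markers 1 rose and 1 fell in DTE, 2 fell in DT and 3 rose in E, with a summed level of 6.71 to 6.86 in DTE arrays, 6.36 to 6.59 in DT, 7.29 to 7.54 in E and 6.72 to 7.07 in DMSO. Whether these genes have a part in the miRNA results was not tested. The deposited arrays were not levelled to 1 distribution: the median gene lay between 4.40 and 4.90 log2 on single arrays, with group means of 4.66 in DTE, 4.48 in DT, 4.88 in E and 4.68 in DMSO.

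On the deposited values, more miRNA loci were called lower than higher in DTE and in DT against DMSO, as among all genes, and few were called in E. A locus was called when limma's test over all 14580 genes gave an adjusted p under 0.05 (Benjamini-Hochberg). In DTE against DMSO, 3 loci rose and 52 fell (1.32% and 22.9% of the 227), beside 9.64% of all genes higher and 22.5% lower. In DT against DMSO, 2 rose and 65 fell (0.881% and 28.6%), beside 3.23% and 24.1% of all genes. In E against DMSO, 5 rose and 4 fell (2.2% and 1.76%), beside 12.5% and 3.54% of all genes. The share of falling loci was thus close to that of all genes in DTE and DT, and the share of rising loci was below that of all genes in the 3 comparisons. Among the other genes with a mean of at least 4, 12% rose and 35.8% fell in DTE, 4.58% and 38.3% in DT, and 16.7% and 5.64% in E. Of the 192 loci at 4 or more in every group, 42 fell in DTE (21.9%) and 51 in DT (26.6%), beside 37.1% and 39.2% of the other genes at 4 or more in every group. A difference of like size is harder to call where arrays vary more. The median residual SD was 0.273 log2 for the 227 loci and 0.162 for the other genes with a mean of at least 4. How far this sets the lower shares of the loci was not tested. Called falls of at least 2-fold numbered 7 in DTE (3.08% of the 227) and 9 in DT (3.96%), beside 1.92% and 2.67% of all genes. All genes include dim ones, and the 2-fold falls of the other genes at 4 or more were not counted. Whether large falls are more frequent among the loci was therefore not tested.

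The counts of fallen loci depend on the level of the whole array. The median log2 difference of the loci was -0.30 in DTE, -0.34 in DT and 0.06 in E against DMSO, while that of all genes was -0.11 in DTE, -0.17 in DT and 0.07 in E. Among the other genes with a mean of at least 4 the median was closer to that of the loci, at -0.23 in DTE, -0.29 in DT and 0.06 in E. After quantile normalization the median of all genes was -0.04 in DTE, 0.0 in DT and -0.03 in E, and that of the loci was -0.21 in DTE, -0.08 in DT and -0.08 in E. The loci called higher and lower then numbered 6 and 34 in DTE, beside 14.2% and 14.2% of all genes, and 6 and 15 in DT, beside 8.55% and 7.86%. In E they numbered 1 and 12, beside 9.67% and 8.45%. All 34 in DTE and all 15 in DT were already among the loci called lower on the deposited values. With each array centred on its median, the counts were 4 and 56 in DTE, beside 11% and 23.1% of all genes, 5 and 25 in DT, beside 8.08% and 12%, and 1 and 20 in E, beside 7.53% and 16.3%. Calls named below that were lost under these scalings are marked as such.

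**Figure D1:**
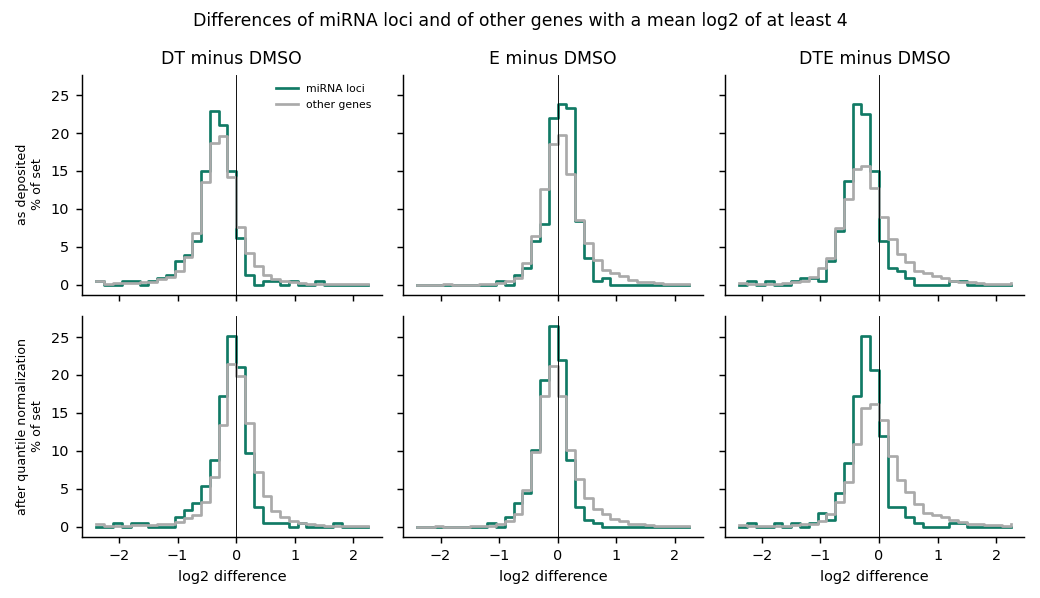
Histograms of the log2 differences of the 227 miRNA loci (green) and of the 8456 other genes with a mean log2 intensity of at least 4 (grey), in percent of each set per bin, for DT, E and DTE against DMSO in columns. The upper row uses the values as deposited, where both sets lie left of 0 in DT and DTE, and the lower row uses quantile-normalized values, where the right flank of the loci is thinner than that of the other genes.

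The combination was also set against each of its parts. In DTE against DT, 11 loci rose and 6 fell, beside 13.8% and 5.09% of all genes and 19.2% and 8.04% of the bright other genes. In DTE against E, 5 rose and 73 fell, beside 2.08% and 22.4% of all genes and 2.47% and 33.1% of the bright ones. In DTE against DT the split turned with the scaling, for the loci and, under median centring, for all genes: quantile normalization gave 7 higher and 16 lower, beside 12.2% and 12% of all genes, and median centring gave 6 and 20, beside 9.36% and 15.4%. In DTE against E it kept its direction, with 7 higher and 15 lower after quantile normalization, beside 6.99% and 5.84% of all genes, and 7 and 19 after median centring, beside 6.71% and 6.91%. The interaction, which asks whether entinostat did the same with the kinase inhibitors as without them, was called for 0 loci upward and 1 downward, beside 0.562% and 0.473% of all genes and 0.851% and 0.627% of the bright ones. In all, 118 loci were called in at least 1 of the 6 comparisons and 109 in none. The matching share of all genes was not counted, so these numbers do not set the loci apart from other genes. Comparisons that use the same group share its arrays, so the values of a locus in them are not independent. Calls kept under every alternative processing and with every array left out in turn were fewer: 13 of the 65 falls in DT and 24 of the 52 falls in DTE. How many calls of all genes were kept in this way was not counted.

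MIR222 and MIR221 had the largest falls of the 227 loci in DTE and in DT against DMSO. Both had group means of at least 4 in E and DMSO only, so they passed the limit through those groups. The hairpins lie 749 bases apart on the minus strand of the X chromosome, MIR221 at chrX:45746157-45746266 and MIR222 at chrX:45747015-45747124 (GRCh38.p14), and their main strands share the seed GCUACAU shown above. MIR221 measured 3.42, 3.22 and 3.56 log2 in DTE arrays, 3.45, 3.56 and 3.17 in DT, 5.55, 5.24 and 5.23 in E, and 5.22, 5.30 and 5.24 in DMSO. MIR222 measured 3.44, 3.39 and 3.74 in DTE, 3.77, 3.66 and 2.94 in DT, 5.77, 5.42 and 5.35 in E, and 5.89, 5.57 and 5.70 in DMSO. For both loci every DTE and DT array lay below every E and DMSO array, and the DTE and DT arrays overlapped. MIR222 was 2.20 ± 0.19 log2 (SE) lower in DTE than in DMSO (4.59-fold, adjusted p = 8.57e-08, limma) and fell by 2.26 ± 0.19 in DT (4.79-fold, adjusted p = 6.15e-08). MIR221 fell by 1.85 ± 0.14 in DTE (3.61-fold, adjusted p = 1.6e-08) and by 1.86 ± 0.14 in DT (3.64-fold, adjusted p = 1.25e-08). Against E, the DTE level was 1.94 log2 lower for MIR221 and 1.99 lower for MIR222. In E against DMSO the differences were 0.09 for MIR221 and -0.20 for MIR222, neither called (adjusted p = 0.751 and 0.535). An offset of 16 added to each intensity before the log, which compresses dim values, gave -1.03 in DTE and -1.03 in DT for MIR221 and -1.32 and -1.34 for MIR222, all still called.

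MIR21, at chr17:59841266-59841337 on the plus strand, fell in DT and was higher in DTE than in DT. It measured 6.05, 6.33 and 6.52 log2 in DTE, 5.11, 5.36 and 5.18 in DT, 6.86, 7.12 and 6.69 in E, and 6.36, 6.72 and 6.48 in DMSO. The 3 DT arrays were below all the others, and the DTE arrays overlapped those of DMSO. The difference was -1.31 ± 0.15 (SE) in DT against DMSO (2.47-fold lower, adjusted p = 3.89e-06) and 1.08 ± 0.15 in DTE against DT (2.12-fold higher, adjusted p = 3.84e-05). Against DMSO, DTE differed by -0.22 (adjusted p = 0.285) and E by 0.37 (adjusted p = 0.11). DTE was 0.59 log2 lower than E (adjusted p = 0.00827), a call lost after quantile normalization (-0.28, adjusted p = 0.139) and after median centring. MIR590, whose 5p strand shares the seed of miR-21-5p, measured 5.22, 5.94 and 5.43 in DTE, 4.67 to 5.74 in DT, 5.43 to 6.18 in E and 5.30 to 6.08 in DMSO, and was called in none of the comparisons.

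MIR181B1, MIR2909 and MIR622 shared with MIR21 a fall in DT and a rise in DTE against DT. MIR181B1 (chr1:198858873-198858982, minus strand), a member of the miR-181 family, measured 6.60, 6.62 and 7.24 log2 in DTE, 5.62, 5.95 and 5.17 in DT, 7.12, 6.68 and 7.21 in E, and 6.64, 6.89 and 6.03 in DMSO. Its DT arrays were below those of every other group, and the DTE arrays overlapped both E and DMSO. The rise in DTE against DT was 1.24 ± 0.23 (SE; 2.37-fold, adjusted p = 0.000678). The fall in DT against DMSO was 0.94 ± 0.23 (1.92-fold, adjusted p = 0.00506) and missed the threshold after quantile normalization (-0.61, adjusted p = 0.0568). The loci MIR181C and MIR181D, which carry the same seed on chromosome 19, differed by -0.19 and -0.25 in DT against DMSO and were not called.

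MIR2909, inside AATF, measured 7.79, 8.09 and 7.74 in DTE, 6.51, 7.23 and 6.98 in DT, 8.26, 7.99 and 8.06 in E, and 7.40, 7.98 and 7.38 in DMSO. The DT arrays again lay lowest, and the DTE arrays overlapped E and DMSO. It rose by 0.97 ± 0.18 in DTE against DT (1.96-fold, adjusted p = 0.000833). Its fall of 0.68 in DT against DMSO (adjusted p = 0.00979) was lost without DMSO 2 or DT 1 (-0.84 to -0.48 over all single arrays left out, adjusted p up to 0.0786) and after quantile normalization (-0.32). AATF, a transcription cofactor, measured 9.13, 9.12 and 9.25 in DTE, 9.32, 9.53 and 9.32 in DT, and 9.82, 9.67 and 9.72 in DMSO. It fell by 0.57 in DTE against DMSO (adjusted p = 0.000836), by 0.25 after quantile normalization. Its fall of 0.35 in DT (adjusted p = 0.0299) was lost without DMSO 1 or DMSO 3 or DT 1 or DT 3 (adjusted p up to 0.118) and under both scalings, and in DTE against DT it differed by -0.22 (adjusted p = 0.204).

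MIR622, whose mature strand maps to chr13:90231242-90231262 inside KRT18P27, a pseudogene of the keratin gene KRT18, was the one of the 3 whose groups all stood apart. It measured 4.24, 3.99 and 4.03 log2 in DTE, 2.68, 3.58 and 3.18 in DT, 5.44, 5.39 and 5.44 in E, and 4.89, 4.96 and 4.56 in DMSO. No 2 groups overlapped: DT was lowest, then DTE, then DMSO, and E was highest. All DT arrays lay under the brightness limit, so the locus passed that limit through DTE, E and DMSO. The locus fell by 1.66 ± 0.18 in DT (3.15-fold, adjusted p = 1.52e-06) and by 0.72 in DTE against DMSO (1.64-fold, adjusted p = 0.0041), and DTE was 0.94 higher than DT (adjusted p = 0.000724) and 1.33 lower than E (adjusted p = 3.02e-05). The offset of 16 gave -0.81 in DT and -0.41 in DTE against DMSO, 0.40 in DTE against DT and -0.83 in DTE against E, all still called. The rise of 0.62 in E (adjusted p = 0.0203) was lost without DMSO 3 or E 1 or E 3 (0.50 to 0.70, adjusted p up to 0.109) and under both scalings (0.42 after quantile normalization). KRT18 itself had group means in the same order, with 4.92, 5.06 and 5.15 in DTE, 4.30, 4.58 and 4.46 in DT, 5.67, 5.99 and 6.21 in E, and 5.48, 5.70 and 5.37 in DMSO, and differed by -0.47 in DTE and -1.07 in DT against DMSO, that in DTE being lost as a call without DMSO 2 or DTE 1 (adjusted p up to 0.0849). Probes for a pseudogene can also bind RNA of its parent gene, and whether the MIR622 probe set does so was not tested.

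**Figure D2:**
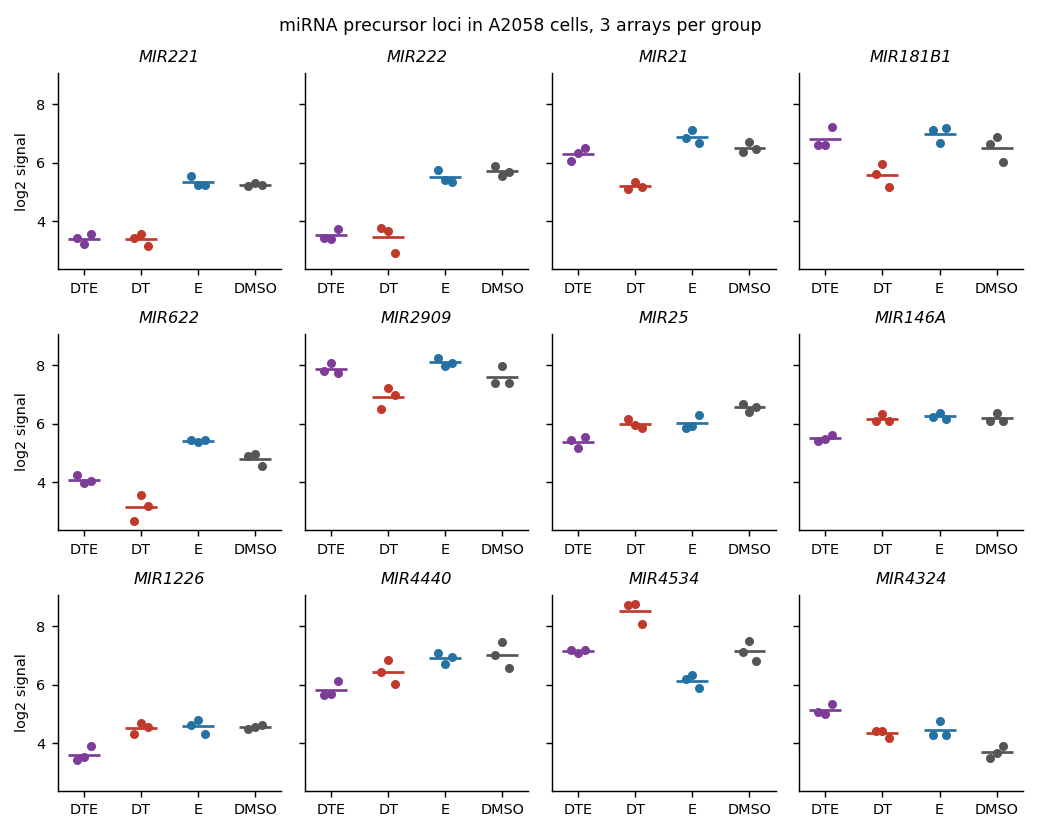
Log2 intensity of 12 miRNA loci in every array, 1 panel a locus, with points for single arrays and a bar for the mean of 3 arrays in the order DTE, DT, E and DMSO. MIR221 and MIR222 are low in DTE and DT, MIR21, MIR181B1, MIR622 and MIR2909 are lowest in DT, and MIR146A and MIR1226 are low in DTE.

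The MIR3689 cluster on chromosome 9 fell together in DT and held some of the brightest loci. Its 6 loci lie on the minus strand, with at most 1219 bases between any 2 of them. The 5p strands of MIR3689A and MIR3689B and the strand of MIR3689E are identical, and MIR3689F shares their seed. MIR3689A measured 9.97, 10.07 and 9.92 log2 in DTE, 9.34, 9.78 and 9.0 in DT, 10.69, 10.55 and 10.16 in E, and 10.66, 10.79 and 10.01 in DMSO. MIR3689E measured 8.35, 8.59 and 8.37 in DTE, 7.79, 8.20 and 7.03 in DT, 9.34, 9.05 and 8.62 in E, and 9.16, 9.30 and 8.61 in DMSO. In both loci the DT arrays lay below those of every other group, E and DMSO overlapped each other, and DTE overlapped DMSO for MIR3689A only. All 6 fell in DT against DMSO, by 1.35 for MIR3689E (adjusted p = 0.000445), 1.30 for MIR3689D2, 1.11 for MIR3689A, 1.08 for MIR3689B, 0.95 for MIR3689F and 0.87 for MIR3689D1. The fall of MIR3689D1 was lost after quantile normalization (-0.49), and the other 5 were called under every alternative.

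The hairpins of this cluster resemble each other, so their probe sets may read each other's RNA. MIR3689D1 and MIR3689D2 were 91.2% identical, MIR3689A and MIR3689E 80.8%, and MIR3689B and MIR3689D1 43.2%. Whether they do was not tested. In DTE against DT, the differences of MIR3689A, MIR3689D2, MIR3689E and MIR3689F were 0.61, 0.68, 0.76 and 0.56 and passed the threshold. Each of these 4 calls was lost when DT 1 or DT 3 or DTE 2 or DTE 3 was left out (0.43 to 1.03, adjusted p up to 0.215), MIR3689A also without DTE 1. That of MIR3689E was also lost under both scalings (0.59 and 0.68, adjusted p = 0.0654 and 0.0594) and with the offset of 16 (adjusted p = 0.101). In DTE against DMSO only MIR3689B (-0.55) and MIR3689D2 (-0.62) passed among the 6, and both were lost without DMSO 1 or DMSO 2 or DTE 1 (adjusted p up to 0.19), MIR3689B also without DT 1 or DTE 3.

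MIR25 and MIR106B are hairpins of the miR-106b-25 cluster in an intron of MCM7, which encodes a subunit of the replicative helicase. MIR25 (chr7:100093560-100093643, minus strand) was lowest in DTE. It measured 5.44, 5.17 and 5.56 log2 in DTE, 6.17, 5.96 and 5.84 in DT, 5.87, 5.91 and 6.30 in E, and 6.68, 6.41 and 6.59 in DMSO. All DTE arrays lay below all DT and E arrays, which overlapped each other, and these lay below all DMSO arrays. The fall in DTE against DMSO was 1.17 ± 0.15 (SE; 2.26-fold, adjusted p = 8.1e-06), and DTE was also 0.61 lower than DT (adjusted p = 0.00597). In DT the fall was 0.57 (adjusted p = 0.00717) and was lost under both scalings (-0.22 after quantile normalization). In E it was 0.54 (adjusted p = 0.0163) and was lost without DMSO 1 or DMSO 3 or E 1 or E 2 (-0.67 to -0.46, adjusted p up to 0.0782).

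MCM7 gave nearly the same differences as MIR25. The host measured 7.38, 7.38 and 7.41 in DTE, 7.86, 8.12 and 7.97 in DT, 8.09, 7.86 and 8.14 in E, and 8.51, 8.54 and 8.53 in DMSO. Against DMSO it fell by 1.14 in DTE (adjusted p = 8.56e-07), by 0.55 in DT (adjusted p = 0.00182, lost after quantile normalization at -0.17) and by 0.50 in E (adjusted p = 0.00584). MIR106B, 350 bases from MIR25, measured 3.99, 4.40 and 4.18 in DTE, 4.32, 4.45 and 4.37 in DT, 4.53, 4.83 and 4.71 in E, and 4.78, 4.84 and 4.52 in DMSO. Its DTE arrays overlapped those of DT and lay below those of E and DMSO. It fell by 0.52 in DTE (adjusted p = 0.00604), while its differences of -0.33 in DT and -0.02 in E were not called. MIR92B, which shares the seed of miR-25-3p at another place in the genome, differed by -0.57 in DT (adjusted p = 0.0236), a call lost without DMSO 1 or DMSO 2 or DT 2 (-0.74 to -0.41, adjusted p up to 0.12) and under both scalings.

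HDAC4, which encodes a class IIa histone deacetylase, contains MIR4440, MIR4441 and MIR2467. MIR4440 measured 5.66, 5.67 and 6.11 log2 in DTE, 6.42, 6.83 and 6.01 in DT, 7.09, 6.69 and 6.95 in E, and 7.03, 7.45 and 6.57 in DMSO. MIR4441 measured 2.73, 4.2 and 3.86 in DTE, 4.06, 4.2 and 4.26 in DT, 4.25, 4.93 and 4.57 in E, and 5.01, 5.49 and 4.74 in DMSO. For both, the DTE arrays lay below those of DMSO and E and overlapped those of DT. MIR4441 had a DTE mean under the brightness limit and passed that limit through DT, E and DMSO. MIR4440 fell by 1.21 ± 0.21 in DTE (2.31-fold, adjusted p = 0.000294) and MIR4441 by 1.48 ± 0.27 (2.8-fold, adjusted p = 0.000443). MIR4441 without DTE 1 still fell, and over all single arrays left out its difference ran from -1.79 to -1.05. The offset of 16 gave -0.80 for MIR4441, still called. HDAC4 measured 5.20, 5.34 and 5.17 in DTE, 5.5, 5.63 and 5.45 in DT, 6.05, 6.21 and 6.30 in E, and 6.39, 6.48 and 6.16 in DMSO, and fell by 1.10 in DTE (adjusted p = 2.53e-06). MIR2467 differed by -0.17 in DTE and was not called.

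In DT, the MIR4440 difference of -0.60 (adjusted p = 0.0458) was lost without DMSO 1 or DMSO 2, DT 1 or DT 3 or E 3 (-0.82 to -0.38, adjusted p up to 0.255). The MIR4441 difference of -0.91 (adjusted p = 0.0194) was lost without DMSO 2 or DT 1 (-1.08 to -0.70, adjusted p up to 0.113). Both were lost under both scalings. HDAC4 fell by 0.81 in DT (adjusted p = 8.85e-05), a call not made by its dimmer probe set.

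MIR4534 and MIR4324 were the 2 loci that rose in DT, and both were called under every alternative. MIR4534 (chr22:37988794-37988853, plus strand) lies in POLR2F, a subunit gene of the RNA polymerases, 4238 bases from SOX10, the master regulator of melanocyte identity. It measured 7.20, 7.08 and 7.17 log2 in DTE, 8.72, 8.76 and 8.06 in DT, 6.21, 6.32 and 5.87 in E, and 7.12, 7.50 and 6.82 in DMSO. The DT arrays were highest and the E arrays lowest, with DTE inside the range of DMSO. Against DMSO the locus rose by 1.37 ± 0.19 (SE) in DT (2.58-fold, adjusted p = 3.4e-05), fell by 1.02 in E (2.02-fold, adjusted p = 0.000898) and differed by 0.00 in DTE (adjusted p = 0.997). DTE was 1.37 lower than DT (adjusted p = 3.84e-05) and 1.02 higher than E (adjusted p = 0.000902). The interaction was -0.35 (adjusted p = 0.667).

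Of the genes beside it and of the melanocyte lineage, SOX10 measured 8.48, 8.40 and 8.13 in DTE, 8.66, 8.85 and 8.75 in DT, 8.44, 8.65 and 8.61 in E, and 8.43, 8.46 and 8.45 in DMSO; it was 0.42 lower in DTE than in DT (adjusted p = 0.02), a call lost without DT 2 or DT 3 or DTE 3 (adjusted p up to 0.0982). In DT against DMSO SOX10 differed by 0.31 (adjusted p = 0.0669), which became a called rise of 0.51 after median centring (adjusted p = 0.00553) and of 0.66 after quantile normalization (adjusted p = 0.0022). MITF, the lineage's main transcription factor, rose by 1.36 in DT and by 0.65 in DTE and fell by 0.68 in E. POLR2F differed by 0.40 in DT (adjusted p = 0.0254) and by -0.47 in DTE against DT (adjusted p = 0.0148). Both POLR2F calls were lost without DT 1 or DT 2 (adjusted p up to 0.118), the first also without DMSO 3.

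MIR4324 rose with either treatment and most with both. It measured 5.06, 4.99 and 5.34 in DTE, 4.43, 4.43 and 4.18 in DT, 4.29, 4.77 and 4.29 in E, and 3.49, 3.66 and 3.91 in DMSO. The DTE arrays were highest and the DMSO arrays lowest, with DT and E overlapping between them. All DMSO arrays lay under 4, so MIR4324 passed the limit through DTE, DT and E. The rise against DMSO was 1.44 ± 0.15 in DTE (2.72-fold, adjusted p = 1.52e-06), 0.66 in DT (adjusted p = 0.00375) and 0.76 in E (adjusted p = 0.0019), and the interaction was 0.03 (adjusted p = 0.981). The offset of 16 gave 0.82 in DTE, 0.33 in DT and 0.39 in E, all still called. Its host, SLC6A16, was not analysed here.

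MIR146A, MIR1226 and MIR3130-1 fell when all 3 drugs were given and were not called under either treatment alone. MIR146A (chr5:160485352-160485450, plus strand), known as a brake on NF-kappa-B signalling, measured 5.42, 5.47 and 5.63 log2 in DTE, 6.08, 6.35 and 6.09 in DT, 6.23, 6.37 and 6.16 in E, and 6.11, 6.38 and 6.08 in DMSO. MIR1226, in DHX30, measured 3.42, 3.52 and 3.90 in DTE, 4.33, 4.70 and 4.56 in DT, 4.62, 4.81 and 4.33 in E, and 4.48, 4.57 and 4.62 in DMSO. For both loci all DTE arrays lay below all other arrays, and the other 3 groups overlapped. All DTE arrays of MIR1226 lay under 4, so it passed the limit through DT, E and DMSO. MIR146A fell by 0.68 ± 0.13 in DTE against DMSO (1.61-fold, adjusted p = 0.000444), by 0.67 against DT (adjusted p = 0.000826) and by 0.75 against E (adjusted p = 0.000417). In DT against DMSO it differed by -0.01, which became a called rise of 0.33 after quantile normalization (adjusted p = 0.0151). MIR1226 fell by 0.94 ± 0.15 in DTE against DMSO (1.92-fold, adjusted p = 0.00011), by 0.92 against DT and by 0.98 against E, and with the offset of 16 by 0.48, 0.47 and 0.50, all still called. Its host DHX30 fell by 0.58 in DTE (adjusted p = 0.00187) and by 0.44 in DT against DMSO (adjusted p = 0.0148). The interaction of DHX30 was -0.01 (adjusted p = 0.991). Results of the alternatives are not given for DHX30.

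For the loci themselves, the difference between the effects of entinostat with and without the kinase inhibitors was tested by the interaction. For MIR1226 it was -0.95 ± 0.21 (adjusted p = 0.0392), the 1 called among the 227 loci, and was lost with an offset of 16 (-0.49, adjusted p = 0.0823). It was also lost without any 1 of 9 arrays, namely each DMSO array, DT 2 or DT 3, E 1 or E 2, or DTE 1 or DTE 2 (-1.09 to -0.84, adjusted p up to 0.093). For MIR146A it was -0.74 (adjusted p = 0.0556), and after quantile normalization -0.80 (adjusted p = 0.0041). MIR3130-1 measured 3.73, 3.81 and 3.72 in DTE, 4.37, 4.34 and 4.71 in DT, 4.64, 4.74 and 4.05 in E, and 4.35, 4.58 and 4.58 in DMSO, again with DTE below all others. Like MIR1226, it lay under the brightness limit in DTE and passed that limit through DT, E and DMSO. It fell by 0.75 in DTE against DMSO (adjusted p = 0.00142; -0.39 with the offset of 16, still called), and its interaction of -0.70 was not called (adjusted p = 0.179). Its fall of 0.72 against DT was not seen with its dimmer probe set (0.07), and its hairpin is 93.3% identical to that of MIR3130-2.

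No let-7 locus had a call that held under every alternative. MIRLET7D measured 4.76, 4.97 and 5.03 log2 in DTE, 4.37, 5.04 and 4.52 in DT, 4.91, 5.70 and 4.99 in E, and 5.35, 5.84 and 5.02 in DMSO. MIRLET7I measured 4.76, 4.42 and 4.42 in DTE, 4.92, 4.97 and 4.54 in DT, 4.79, 4.87 and 5.13 in E, and 5.07, 5.06 and 4.93 in DMSO. MIRLET7E measured 4.55, 4.84 and 4.43 in DTE, 4.69, 4.57 and 4.27 in DT, 4.45, 4.96 and 4.65 in E, and 5.06, 5.0 and 4.6 in DMSO. DMSO arrays overlapped DT arrays for MIRLET7D and MIRLET7E, and all DTE arrays of MIRLET7I lay below all DMSO arrays. MIRLET7D differed by -0.76 in DT (adjusted p = 0.0147), a call lost without DMSO 2 or DT 1 or DT 3 (-0.96 to -0.54, adjusted p up to 0.103) and under both scalings. MIRLET7I differed by -0.48 in DTE (adjusted p = 0.0139), a call lost without DTE 2 or DTE 3 (-0.60 to -0.43, adjusted p up to 0.0589). MIRLET7E was called in none of the comparisons, and neither was MIR98, the X-linked locus with the let-7 seed.

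Other falls called under every alternative are shown by MIR24-2, MIR544B and MIR891A; the first 2 were chosen after their values were seen. MIR24-2 (chr19:13836287-13836359) measured 5.20, 5.54 and 5.33 log2 in DTE, 5.36, 5.23 and 4.47 in DT, 6.16, 5.75 and 5.96 in E, and 6.04, 6.16 and 5.62 in DMSO, and fell by 0.92 in DT (1.9-fold, adjusted p = 0.00196). Its DT arrays lay below all DMSO arrays and overlapped those of DTE. MIR544B, in UMPS, measured 3.62, 4.44 and 4.36 in DTE, 4.37, 4.40 and 3.94 in DT, 4.71, 4.89 and 4.83 in E, and 5.02, 5.67 and 5.01 in DMSO. Both inhibitor groups lay below E and DMSO, and the locus fell by 1.09 in DTE (2.14-fold, adjusted p = 0.000493) and by 0.99 in DT (1.99-fold, adjusted p = 0.00148). MIR891A measured 3.93, 4.51 and 5.08 in DTE, 5.37, 4.95 and 4.64 in DT, 5.43, 4.76 and 4.79 in E, and 5.54, 5.54 and 6.13 in DMSO. It was highest in DMSO and fell by 1.23 in DTE (2.35-fold, adjusted p = 0.00111).

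MIR210, the hypoxia-responsive miRNA, measured 5.95, 6.30 and 6.08 log2 in DTE, 6.09, 6.13 and 5.85 in DT, 6.55, 6.68 and 6.26 in E, and 6.51, 6.85 and 6.18 in DMSO. DT lay just below DMSO, by 0.49 (adjusted p = 0.0314), a call lost without DMSO 1 or DMSO 2 or DT 1 or DT 3 (-0.65 to -0.32, adjusted p up to 0.191) and under both scalings. Its host transcript MIR210HG differed by 0.15 in DT and was not called. The other melanoma, ERK or HDAC related loci of the list used did not reach the brightness limit or are not among the loci read.

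The calls made for entinostat alone were mostly marginal. Beside MIR4534 and MIR4324, which held under every alternative, the loci named by size were MIR622 and MIR25, given above, and MIR1250, MIR615, MIR3939 and MIR4646. MIR1250 measured 5.07, 5.26 and 5.56 log2 in DTE, 4.99, 5.25 and 4.71 in DT, 5.22, 5.44 and 5.21 in E, and 4.77, 4.99 and 4.47 in DMSO. Its E and DTE arrays lay above all DMSO arrays and overlapped those of DT. The rise of 0.55 in E (adjusted p = 0.0286) was lost without DMSO 1 or DMSO 3 or E 1 or E 2 (0.41 to 0.67, adjusted p up to 0.152), under both scalings (0.35 in each, adjusted p = 0.0674 and 0.0704) and with the offset of 16 (0.36, adjusted p = 0.0584). The rise of 0.56 in DTE (adjusted p = 0.0145) was lost without DMSO 3 or DTE 3 (0.42 to 0.68, adjusted p up to 0.0784). MIR3939 measured 4.68, 4.64 and 4.21 in E and 4.98, 5.57 and 4.85 in DMSO, with no overlap, and differed by -0.62 in E (adjusted p = 0.032), a call lost without DMSO 2 or E 3 (-0.77 to -0.41, adjusted p up to 0.166) and with the offset of 16 (-0.40, adjusted p = 0.0723). In DTE against DMSO MIR3939 fell by 0.84, a call made under every alternative (-0.52 with the offset of 16). MIR615 measured 4.40, 4.54 and 4.74 in E and 4.11, 4.21 and 3.97 in DMSO and differed by 0.46 (adjusted p = 0.037). That call was lost without DMSO 1 or DMSO 3 or E 2 or E 3 (0.37 to 0.54, adjusted p up to 0.165) and under both scalings. MIR4646 measured 4.50, 4.34 and 4.37 in E and 4.93, 4.95 and 4.56 in DMSO and differed by -0.41 (adjusted p = 0.0469), a call lost without any 1 of 9 arrays, namely DMSO 1 or DMSO 2, any DT or E array, or DTE 1 (-0.54 to -0.34, adjusted p up to 0.172).

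MIR424 and MIR3143 were higher in DTE than in E by small margins. MIR424, which shares its primary transcript with MIR503, measured 4.49, 4.43 and 4.57 log2 in DTE and 4.03, 4.04 and 4.01 in E, and MIR3143 measured 8.40, 8.47 and 8.55 in DTE and 7.98, 7.98 and 8.18 in E. Neither pair of groups overlapped. The differences were 0.47 for MIR424 (adjusted p = 0.0271) and 0.43 for MIR3143 (adjusted p = 0.0232). The first was lost without any E array or DTE 1 or DTE 3 (0.43 to 0.50, adjusted p up to 0.071), and the second without E 1 or E 2 or DTE 2 or DTE 3 (0.39 to 0.49, adjusted p up to 0.072).

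Within 10 kb of each other lay 26 loci in 10 pairs or groups, and neighbours did not always have like values. MIR221 with MIR222 and the 6 MIR3689 loci fell together in DT. MIR25 fell more than MIR106B in DTE, by 1.17 against 0.52. MIR1250 and MIR338, both in AATK, differed by 0.56 and -0.19 in DTE and by 0.55 and 0.04 in E, and only MIR1250 was called. MIR424 and MIR503 differed by 0.38 and 0.07 in DTE, neither called. The difference between neighbours was not tested.

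**Figure D3:**
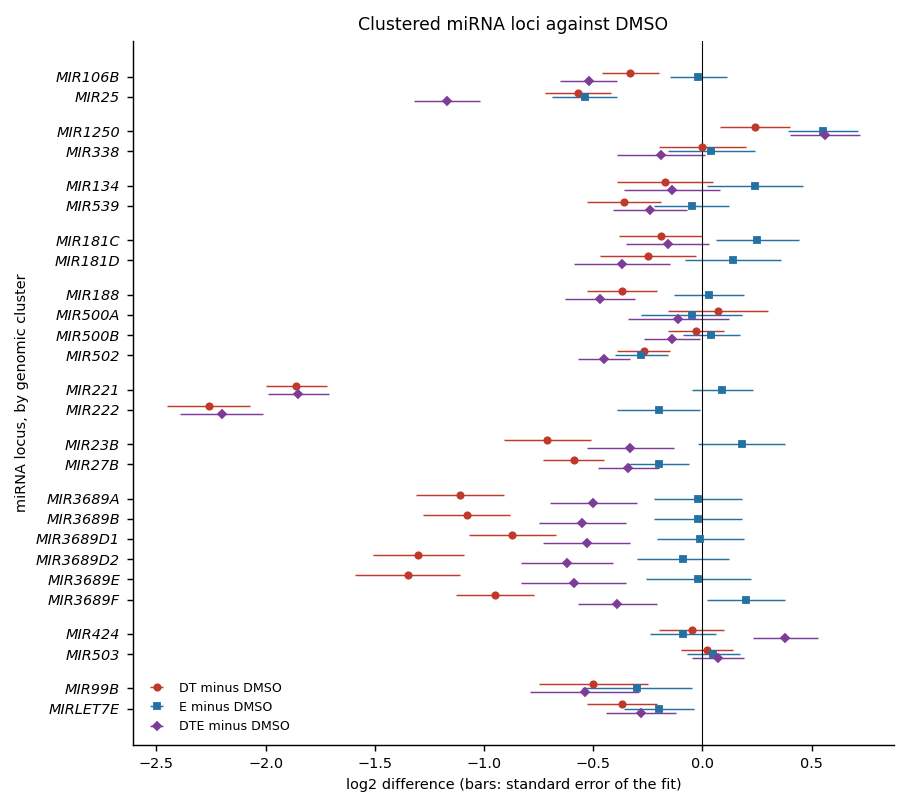
Log2 differences against DMSO of the 26 loci that lie within 10 kb of another of the loci, grouped by cluster, with circles for DT, squares for E and diamonds for DTE and bars for the standard error of the fit. MIR221 and MIR222 stand near -2 in DT and DTE, and the MIR3689 loci stand between -1.35 and -0.87 in DT.

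A host gene on the same strand was found for 129 loci and was measured for 71 of them (64 different hosts). The counts of falls are set beside each other here. In DTE against DMSO, 18 of these 71 loci were lower, and the host was lower for 12 of the 18, while hosts were lower for 30 of all 71. In DT, 25 loci were lower, with the host lower for 17 of the 25 and for 33 of all 71. Over the 71 pairs, Pearson's r between the log2 difference of locus and host was 0.401 in DTE, 0.516 in DT and 0.161 in E. Both values of a pair come from the same arrays and several hosts hold more than 1 locus, so r is a description.

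MIR25 and MCM7 changed by almost equal amounts, and MIR21 and VMP1 did not. VMP1, an autophagy gene whose end the MIR21 gene overlaps, measured 11.21, 11.23 and 11.60 log2 in DTE, 11.02, 11.15 and 11.12 in DT, 11.52, 11.31 and 11.48 in E, and 11.22, 11.24 and 11.17 in DMSO. It differed by -0.11 in DT (adjusted p = 0.558), where MIR21 fell by 1.31. MIR181A1HG, the transcript that carries MIR181B1, measured 6.27, 6.86 and 6.91 in DTE, 5.60, 5.87 and 5.68 in DT, 6.70, 6.81 and 6.81 in E, and 6.57, 6.71 and 6.28 in DMSO. DT lay below every other group, as in MIR181B1. It fell by 0.80 in DT (adjusted p = 0.00105) and was 0.97 higher in DTE than in DT (adjusted p = 0.00023). MIR3650, chosen after its values were seen, went against its host, the cytokine receptor gene LIFR, with -0.49 (adjusted p = 0.0453) beside 0.93 (adjusted p = 0.000168) in DTE. The MIR3650 call was lost without any DMSO array, DT 1, or DTE 1 or DTE 3 (-0.74 to -0.34, adjusted p up to 0.209).

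**Figure D4:**
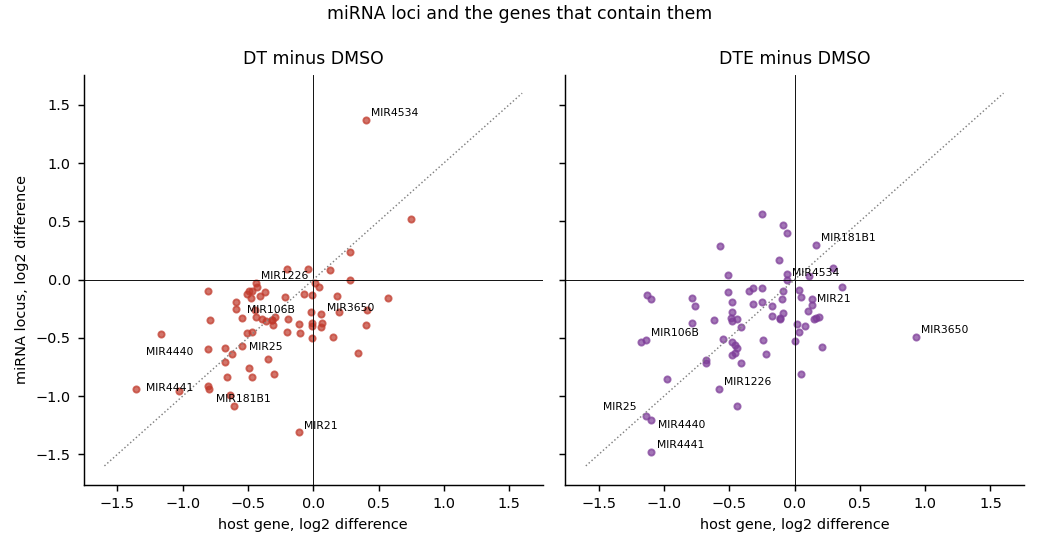
Log2 difference of each locus (vertical) against that of the gene that contains it on the same strand (horizontal) for 71 pairs, with DT against DMSO on the left and DTE against DMSO on the right and equality dotted. MIR25, MIR4440 and MIR181B1 lie near the dotted line, and MIR21 lies far below it in DT.

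The start sites of the host transcripts of MIR221, MIR222 and MIR181B1 were read because these loci fell in DT, where FOSL1, an AP-1 subunit, was 4.04 log2 lower than in DMSO. FOSL1 was 4.01 lower in DTE too, where MIR221 and MIR222 fell but MIR181B1 and MIR181A1HG differed by 0.30 and 0.16 and were not called. The AP-1 motif TGANTCA, a palindrome and so the same on both strands, was searched in the 250 bases before and 50 after each start. The MIR222HG promoter (chrX:45770218-45770517, minus strand) held 0 matches and the MIR181A1HG promoter (chr1:198937380-198937679, minus strand) held 1, shown in capitals. Among all 35116 RefSeq promoters of this length, 2707 (7.71%) held a match. A match describes letters only, and whether AP-1 has a part in these changes was not tested. The start site for MIR21, which fell in DT too, was not read.
MIR222HG: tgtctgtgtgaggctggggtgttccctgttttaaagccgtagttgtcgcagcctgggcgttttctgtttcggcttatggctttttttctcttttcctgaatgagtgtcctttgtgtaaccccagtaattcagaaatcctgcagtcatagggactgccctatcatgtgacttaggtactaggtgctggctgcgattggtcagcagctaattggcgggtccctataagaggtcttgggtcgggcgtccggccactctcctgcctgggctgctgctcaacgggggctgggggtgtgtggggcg
MIR181A1HG: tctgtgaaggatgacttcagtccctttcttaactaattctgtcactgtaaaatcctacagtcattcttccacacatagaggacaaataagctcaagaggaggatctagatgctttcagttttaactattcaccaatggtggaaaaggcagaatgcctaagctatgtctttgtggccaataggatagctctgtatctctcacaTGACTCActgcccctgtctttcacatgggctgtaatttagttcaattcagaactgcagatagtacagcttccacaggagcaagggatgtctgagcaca

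Of a list of 33 genes that make, load, regulate or degrade miRNAs, 19 were measured. DROSHA, DICER1 and the Argonaute genes were not among the 19, so the main cutting and loading proteins were not read. In DTE against DMSO 0 rose and 11 fell, in DT 0 rose and 9 fell, and in E 0 rose and 3 fell, beside the shares of all genes and of the bright other genes given above. After quantile normalization the counts were 1 and 2 in DTE, 1 and 3 in DT and 1 and 4 in E. DGCR8, the RNA-binding partner of DROSHA, measured 5.23, 5.20 and 5.31 log2 in DTE, 5.67, 5.92 and 5.46 in DT, 5.81, 5.77 and 5.65 in E, and 6.33, 6.35 and 6.0 in DMSO. DTE lay below every other group and DMSO above. It fell by 0.98 in DTE (1.97-fold, adjusted p = 2.42e-05). Its fall of 0.54 in DT was lost after quantile normalization (-0.22), and that of 0.48 in E (adjusted p = 0.0184) without DMSO 1 or DMSO 2 or E 3 (-0.60 to -0.42, adjusted p up to 0.0832).

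LIN28B, which binds let-7 precursors and blocks their maturation, was lowest in DT. It measured 4.76, 5.09 and 5.45 in DTE, 4.05, 4.55 and 4.12 in DT, 5.71, 5.59 and 5.69 in E, and 5.63, 5.21 and 5.32 in DMSO, with DT below all others. It fell by 1.15 in DT (2.22-fold, adjusted p = 6.77e-05) and was 0.87 higher in DTE than in DT (adjusted p = 0.00113). With the offset of 16 these were -0.73 and 0.53, both still called. TARBP2, the partner of DICER1, fell by 0.78 in DTE (adjusted p = 0.000657). XPO5, the exporter of precursors, fell by 0.52 in DTE (adjusted p = 0.00404) and by 0.61 in DT (adjusted p = 0.00146), and both calls were lost after quantile normalization. HNRNPA1, a splicing factor that binds some primary transcripts, measured 7.48, 7.50 and 7.85 in DTE, 7.13, 7.42 and 7.05 in DT, 7.62, 7.64 and 7.59 in E, and 7.98, 8.25 and 7.99 in DMSO, with DMSO highest. It fell by 0.87 in DT (1.83-fold, adjusted p = 0.000114).

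The bright loci differed in base composition from the dim ones, a property the rule did not use. The hairpins of the 190 loci with a RefSeq hairpin had a median GC content of 58.8% (quartiles 51.1% and 64.0%), and those of 652 miRNA loci under the limit a median of 45.3% (quartiles 40.2% and 52.9%). Hairpin length was alike, with medians of 82 and 83 bases. MIR210 reached 72.7%, MIR4673 71.2% and MIR570 only 37.1%. Across the 190 loci, Spearman's rho between GC content and the log2 difference was -0.0851 in DTE, 0.0561 in DT and 0.0604 in E against DMSO, -0.173 in DTE against DT and -0.134 in DTE against E. Probes rich in G and C bind more strongly, and how far that sets which loci pass the limit was not tested.

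**Figure D5:**
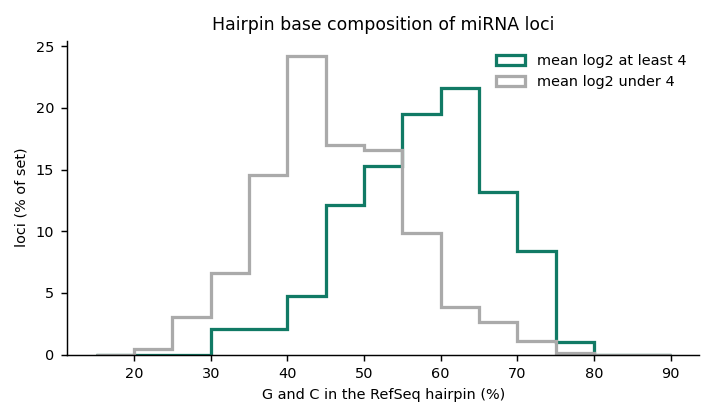
Histograms of hairpin GC content in percent for the 190 loci with a mean log2 intensity of at least 4 and for the 652 miRNA loci under that level, in percent of each set. The bright loci centre at 58.8% and the dim ones at 45.3%.

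Near-identical copies limit what some loci can show. A hairpin at least 90% identical elsewhere was found for 9 of the 190, among them MIR941-1, MIR3179-1 and MIR3180-4, whose copies on the same list of miRNA loci are 98.6% to 100.0% identical. Values of these loci are sums over their copies as far as the probes cannot separate them.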

How the data were processed

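Total RNA of 12 A2058 samples, with spike-in RNA added before extraction per the labels' protocols, was read on arrays. The values deposited by the authors are linear intensities, 1 for each probe set on each array (1.88 to 8728). RMA and the Transcriptome Analysis Console are named in the submitters' processing notes, without versions; the sources used here name no genome build. Of 29396 probe sets, 14748 carried 1 gene symbol and none several; these gave 14580 genes, each represented by its brightest probe set.

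Log2 values of all genes entered 1 limma fit (limma 3.58.1, R 4.3.3) of 4 group means over 12 arrays (8 residual degrees of freedom, prior 9.764), followed by eBayes and Benjamini-Hochberg adjustment over 14580 genes; a call is an adjusted p under 0.05. The fit was tested on simulated data. The number of arrays limits the precision. Members, gene lists and tests were chosen with earlier results of these data known. Loci were named by size among called loci without overlap (up to 5 a direction and comparison) and from a list of melanoma, ERK, HDAC and let-7 loci; loci sharing a seed, cluster or host with these were added. The alternatives were median centring, quantile normalization, an offset of 16, a limit on dim genes, the dimmest probe set, the replicate number as a block and leaving out each array. Samples with the same replicate number did not deviate together (correlations of -0.10 to 0.17, 3 of 18 over 0.1). Sequences and places are from RefSeq, GRCh38.p14.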

Additional observations from a re-analysis of the deposited data

Results flagged for a closer look

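For MIR1226 the effect of entinostat with dabrafenib and trametinib differed from its effect alone by -0.95 log2 (interaction, adjusted p = 0.0392, limma): DTE was 0.92 lower than DT, and E differed from DMSO by 0.03. All 3 DTE arrays lay below all 9 others. They also lay under the brightness limit, so the locus passed that limit through DT, E and DMSO. The call was lost without any 1 of 9 arrays (-1.09 to -0.84, adjusted p up to 0.093).

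For HNRNPA1, a splicing factor among the processing genes, the same difference was 0.87 log2 (interaction, adjusted p = 0.0359): DTE was 0.41 higher than DT, a call lost after median centring (0.24, adjusted p = 0.131) and without any 1 of 7 arrays, and E was 0.46 lower than DMSO, a call lost without DMSO 2 or any E array (adjusted p up to 0.111). The interaction was lost without any 1 of 10 arrays (0.75 to 0.98, adjusted p up to 0.0967).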

How the results depend on the processing

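Of 162 values of named loci, 69 were called, and 39 of these were called under all 18 alternatives, 12 of which leave out 1 array. Higher and lower calls among the 227 loci moved with the scaling and with single arrays. Median centring gave 5 higher and 25 lower in DT, 1 and 20 in E, 6 and 20 in DTE against DT, 19 lower in DTE against E and 2 lower in the interaction. Quantile normalization gave 6 and 15 in DT, 1 and 12 in E, 6 and 34 in DTE, 7 and 16 in DTE against DT, 15 lower in DTE against E, and 1 and 2 in the interaction. The offset of 16 gave 2 higher in E and 6 higher in DTE against DT; the limit on dim genes gave 8 higher in E and 2 lower in the interaction. The cause of these changes was not tested.

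With the replicate block, which pairs samples by number only, calls were 9 higher in E and 2 lower in the interaction; its other counts stayed within 1.5 times. Quantile normalization turned MIR146A in DT to 0.33, KHSRP in DT to 0.01 and HNRNPA1 in DTE against E to 0.31, and the dimmest probe set turned MIR3130-1 in DTE against DT to 0.07.

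Leaving out each array gave 2 to 3 higher and 30 to 84 lower in DT, 1 to 10 and 2 to 5 in E, 1 to 5 and 33 to 81 in DTE, 5 to 16 and 5 to 7 in DTE against DT, 2 to 5 and 37 to 75 in DTE against E, and 0 to 0 and 0 to 2 in the interaction. The falls in DT numbered 30 without DMSO 2, 40 without DT 1 and 38 without DT 3. Those in DTE numbered 33 without DMSO 2 and 81 without DMSO 3. Falls in DTE against E numbered 37 without DTE 1. Rises in DTE against DT numbered 5 without DT 1 or DT 3 or DTE 2. Rises in E numbered 10 without DMSO 2 and 1 to 3 without any other DMSO or E array, and its falls 2 without DMSO 1. Rises in DTE numbered 5 without DMSO 2 and 1 without DMSO 3 or DTE 3. Rises in DTE against E numbered 2 to 3 without E 1 or E 3 or DTE 2 or DTE 3.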

Other observations

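The long transcripts named as miRNA host genes, left out of the loci by their symbol, were read for 24 genes. In DT against DMSO 0 rose and 4 fell, in DTE 0 rose and 2 fell, and in E 3 rose and 2 fell, beside 3.23% and 24.1%, 9.64% and 22.5%, and 12.5% and 3.54% of all genes. MIR31HG, the transcript around MIR31, measured 3.85, 3.77 and 3.57 log2 in DTE, 2.99, 3.2 and 3.15 in DT, 4.43, 4.16 and 4.46 in E, and 3.94, 4.38 and 3.66 in DMSO, with the DT arrays lowest. It fell by 0.88 in DT against DMSO (1.84-fold, adjusted p = 0.000445, limma).

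MIR181A2HG, the host transcript of another miR-181a and miR-181b pair, differed from MIR181A1HG. It measured 3.97, 4.03 and 3.75 in DTE, 4.93, 4.84 and 4.6 in DT, 3.31, 3.62 and 3.52 in E, and 4.06, 4.95 and 3.96 in DMSO. It was 0.87 lower in DTE than in DT (adjusted p = 0.00352) and fell by 0.84 in E against DMSO (adjusted p = 0.00593), where MIR181A1HG differed by 0.26. MIR100HG fell by 0.53 in DTE against DMSO (adjusted p = 0.00427) and was 0.75 lower in DTE than in E (adjusted p = 0.000578). These host transcripts were dim in part of the groups. MIR100HG lay under 4 in every group mean, MIR31HG averaged 3.11 in DT and MIR181A2HG 3.49 in E. The DMSO arrays of MIR181A2HG had an SD of 0.543 log2. Results with the offset or with single arrays left out are not given for them.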
